A study of Homo sapiens with 12 samples.

Results

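The 7 long noncoding RNAs MALAT1, NEAT1, KCNQ1OT1, NORAD, GAS5, SNHG1 and PVT1 were followed across RNA immunoprecipitation libraries of Arid5a, an RNA-binding protein studied here in IL-17 signalling. They were taken by Ensembl identifier, which are ENSG00000251562 for MALAT1, ENSG00000245532 for NEAT1, ENSG00000269821 for KCNQ1OT1, ENSG00000260032 for NORAD, ENSG00000234741 for GAS5, ENSG00000255717 for SNHG1 and ENSG00000249859 for PVT1. They are 7 of the 60708 features in the deposited count table. The cells were HK2, an established human kidney epithelial line, and every culture, controls included, had been transfected with 10 µg of plasmid for human Arid5a carrying a FLAG tag. The protein in these precipitates therefore came from a transfected plasmid, and no untransfected culture was among the groups. Cells then spent 3 h in medium alone or in medium with IL-17 at 200 ng/mL. Precipitation used anti-FLAG or, to measure background, mouse IgG1. This gave 4 groups of 3 libraries: IgG medium, FLAG medium, IgG IL-17 and FLAG IL-17. Separate cultures are not stated for the replicates, and the spread that enters the p-values may therefore be technical.

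Long noncoding RNAs act as RNA and are not translated into a protein. MALAT1 lies in nuclear speckles, NEAT1 is the scaffold of paraspeckles, and KCNQ1OT1 is an imprinted transcript that stays in the nucleus and silences neighbouring genes in cis. NORAD is abundant in the cytoplasm, where it binds Pumilio proteins. GAS5 and SNHG1 are spliced host genes that carry small nucleolar RNAs in their introns and whose exported transcripts are subject to translation-linked decay. PVT1 is a multi-isoform RNA that hosts microRNAs and neighbours MYC. Arid5a is known for binding and stabilising inflammatory mRNAs.

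In RefSeq on GRCh38.p14, MALAT1 spans chromosome 11 from 65497738 to 65506516 and NEAT1, close by on the same chromosome, from 65422798 to 65445540. KCNQ1OT1 runs from 2608328 to 2699994 on chromosome 11 as 1 transcript and overlaps KCNQ1, to which it is antisense. NORAD spans 36045618 to 36050960 on chromosome 20 as 1 transcript and overlaps no other annotated gene. SNHG1 lies on chromosome 11 from 62851978 to 62855885 and overlaps 9 annotated genes, 8 of them small nucleolar RNAs. GAS5 lies on chromosome 1 from 173863901 to 173869045 and overlaps 13, including GAS5-AS1 and the protein-coding gene ZBTB37. MALAT1 overlaps TALAM1, its antisense transcript, and the small RNA cut from its 3′ end, listed as MASCRNA. The low-input kit that made these libraries does not mark strand, so reads of KCNQ1OT1 and of unspliced KCNQ1, or of a host gene and an overlapping antisense gene, cannot be told apart.

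The first 50 bases after annotated RefSeq starts are shown for the 2 pairs that followed each other most closely across libraries, the hosts GAS5 and SNHG1 and the pair MALAT1 and NORAD. Capitals mark the longest run of pyrimidines, because host genes of small nucleolar RNAs are known for a terminal oligopyrimidine tract at the transcript start.
GAS5: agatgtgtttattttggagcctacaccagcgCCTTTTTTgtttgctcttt
SNHG1: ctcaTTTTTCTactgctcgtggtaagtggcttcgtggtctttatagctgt
MALAT1, start 1: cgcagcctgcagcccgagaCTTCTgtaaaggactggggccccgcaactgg
MALAT1, start 2: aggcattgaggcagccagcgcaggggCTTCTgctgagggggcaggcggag
NORAD: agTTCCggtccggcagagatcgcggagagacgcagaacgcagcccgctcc
The run was 8 bases in GAS5 from base 32 and 7 bases in SNHG1 from base 5. It was 5 bases at both MALAT1 starts and 4 in NORAD. Neither host's marked run began at the annotated start shown, where a terminal tract would lie. RefSeq lists 50 transcripts for GAS5 and 12 for SNHG1. The 1 start shown for each is the outer end of the gene span, and other starts were not looked at. Runs in the 35116 RefSeq start windows were likewise counted at any position. At least 8 bases were reached in 17.1% of windows, 7 in 26.7%, 5 in 62.3% and 4 in 83.3%. These are descriptions of annotated starts, and the start used in HK2 was not measured.

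Library totals ran from 746911 estimated counts in IgG medium replicate 1 to 17723100 in FLAG IL-17 replicate 1, and all FLAG IL-17 libraries were deeper than all medium libraries. When each library was thinned to 740000 counts, the most features were left in replicate 1 of IgG IL-17 (32471), replicate 2 of IgG medium (25969) and replicate 1 of FLAG medium (25309), against 10599 to 21498 in the other 9 libraries. These 3 libraries and the shallow IgG medium replicate 1 stood apart, and results that rest on them are given with and without them. The 10 highest features took between 32.6% and 59.7% of TPM (transcript share per length, scaled to a fixed sum), so TPM is used mainly to compare genes of a library, and a TPM value set between libraries carries these shares with it. The 7 noncoding RNAs together made up 0.506% to 1.31% of the counts of a library.

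MALAT1 was the most abundant of the set in TPM in 11 of 12 libraries, followed in most by GAS5 and SNHG1. Its TPM ranged from 49.96 to 1048 with a median of 354, that of GAS5 from 61.2 to 356 with a median of 161, and that of SNHG1 from 16.1 to 413 with a median of 68.3. The exception was IgG medium replicate 1, where SNHG1 had 413 TPM, GAS5 216 and MALAT1 49.96. GAS5 was above SNHG1 in 10 of 12 libraries, and both were above NEAT1, NORAD and PVT1 in all 12. NEAT1, NORAD and PVT1 had median TPM of 5.54, 4.67 and 4.67 and could not be ordered beyond their spread: NEAT1 was above NORAD in 7 of 12 libraries and NORAD above PVT1 in 7 of 12. KCNQ1OT1 was lowest in every library, at 0.34 TPM or less.

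TPM depends on the transcript length given to each gene, and the ratio of estimated count to TPM shows that length. Set against NORAD in the same library, the apparent length of KCNQ1OT1 was 17.7 and 17.9 in the 2 libraries with enough TPM to compute it, near the 17.2 ratio of the RefSeq spans. MALAT1 was different: its RefSeq span is 1.64 times that of NORAD, but its apparent length was 0.369 to 0.71 of NORAD. The estimated counts of MALAT1 were thus assigned on average to models shorter than the full span, and TPM divides by that length. NEAT1, which is made as a short and a long isoform from 1 start, spanned 0.712 to 2 times NORAD, a 2.81-fold range against 1.3-fold for GAS5. Within IgG medium alone NEAT1 took the values 0.712, 2 and 0.926, and with FLAG IL-17 it took 1.04, 1.37 and 1.77. All 4 groups overlapped, so the share of long NEAT1 models differed between libraries but did not separate antibodies or treatments. Scaled by the median of 2658 features measured in all libraries in place of NORAD, the range for NEAT1 was 2.55-fold.

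GAS5 had the shortest apparent length, at 0.115 to 0.122 of NORAD in the 6 medium libraries and 0.131 to 0.149 in the 6 IL-17 libraries, without overlap. On the scale of the 2658 features the treatments overlapped for GAS5, at 0.372 to 0.432 in medium and 0.354 to 0.412 with IL-17. On that same scale NORAD, with 1 annotated transcript, separated at 3.07 to 3.62 in medium and 2.69 to 2.77 with IL-17, and MALAT1 at 1.33 to 2.37 in medium and 0.996 to 1.19 with IL-17. Set against NORAD, MALAT1 overlapped, at 0.403 to 0.71 and 0.369 to 0.443. Scaled by each library's own median feature, the planned scale, GAS5, MALAT1 and NORAD all overlapped. GAS5 was at 0.326 to 0.428 in medium and 0.396 to 0.44 with IL-17, and MALAT1 at 1.31 to 2.32 and 1.08 to 1.4. NORAD was at 2.81 to 3.58 and 2.66 to 3.26. Whether a member separated by treatment therefore depended on what its length was set against, and the share of all features that separated was not computed. SNHG1 ran from 0.196 to 0.305 and PVT1, in 11 libraries, from 0.149 to 0.232 of NORAD, and both overlapped between medium and IL-17.

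**Figure D1:**
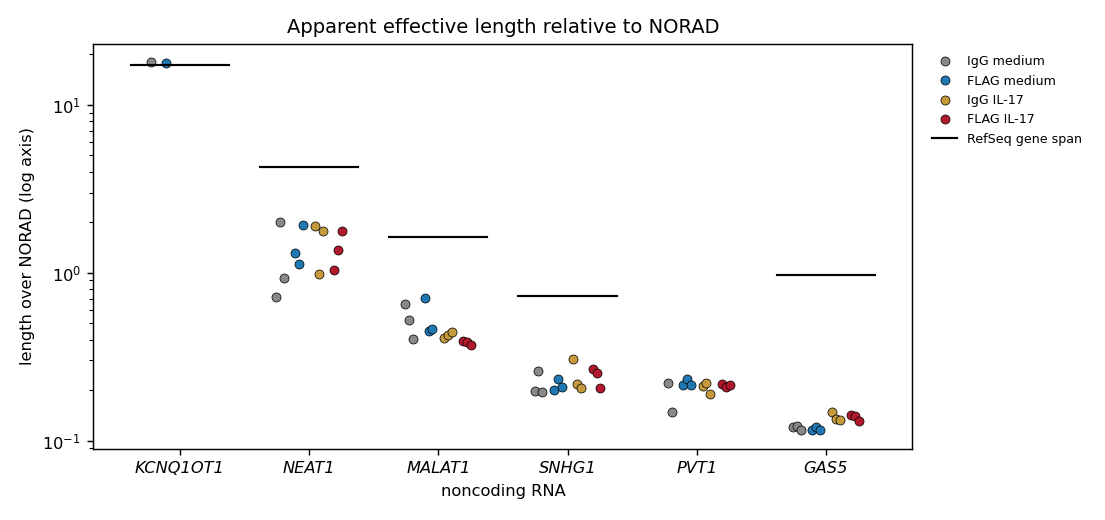
Apparent effective length of each noncoding RNA over that of NORAD in the same library (vertical log axis; points are libraries, coloured by group; black lines are RefSeq gene spans over that of NORAD, not drawn for PVT1). NEAT1 runs from 0.712 to 2 under its span ratio of 4.26, and MALAT1 stays at 0.71 or less under its ratio of 1.64.

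The main question was whether FLAG-Arid5a precipitates held more of these RNAs than IgG precipitates. None of the 7 differed past the threshold in medium or with IL-17. In medium, edgeR called 0 of 7 at an adjusted p under 0.05, beside 0% of all 24040 tested features. DESeq2 also called 0 of 7, beside 0.745% of the 18793 features to which it gave an adjusted p, the base of each DESeq2 share below. So did limma on log2(TPM + 1), which called 0% of the 24040. At an unadjusted p under 0.05 edgeR gave 0 of 7, beside 4.17% of all features higher and 2.4% lower. With IL-17, edgeR (0% of all features), DESeq2 (0.0386% of 23307) and limma (0% of all) again called 0 of 7. At an unadjusted p under 0.05 edgeR gave 1 of 7, KCNQ1OT1, which was lower, beside 0.566% of all features higher and 2.25% lower. The members' median log2 fold change was -0.11 in medium and -0.20 with IL-17, beside 0.20 and -0.33 over all tested features. All 7 passed the filter on low counts.

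**Figure D2:**
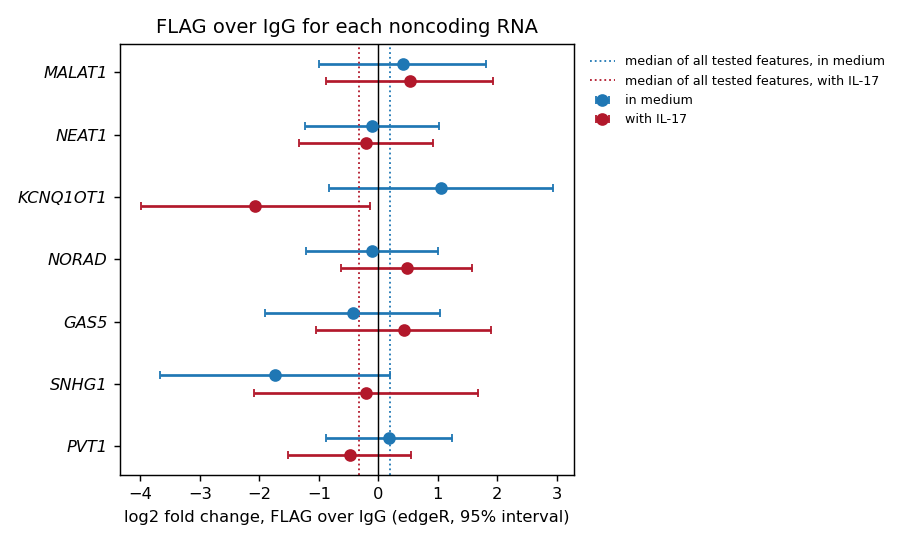
Log2 fold change of FLAG over IgG for each noncoding RNA (horizontal axis) from the edgeR model of all 12 libraries, n = 3 per group, with 95% intervals; dotted lines are the medians of all tested features. Every interval holds 0 except that of KCNQ1OT1 with IL-17, which reaches -0.15 and did not pass after adjustment.

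MALAT1 was recovered at high levels with both antibodies. Its level in CPM (counts scaled to the library total) was 1888, 7781 and 7728 in IgG medium replicates 1, 2 and 3, and 5349, 10120 and 9576 in FLAG medium. With IL-17 it was 5685, 6793 and 2852 in IgG and 7705, 6983 and 3960 in FLAG. FLAG and IgG libraries overlapped under both conditions. The log2 fold change was 0.41 ± 0.68 (SE) in medium, with a 95% interval of -0.996 to 1.81, and 0.53 ± 0.68 with IL-17, with an interval of -0.87 to 1.93 (edgeR adjusted p = 1 and 0.924). Both intervals hold 0.

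NEAT1 was likewise recovered with both antibodies, and its FLAG and IgG libraries overlapped under both conditions. It had 217, 359 and 117 CPM in IgG medium and 351, 230 and 238 CPM in FLAG medium. With IL-17, IgG libraries had 933, 275 and 331 CPM and FLAG libraries 271, 442 and 259 CPM. The single high value belonged to IgG IL-17 replicate 1, the library with the most features at equal depth. Log2 fold changes of FLAG over IgG were -0.11 ± 0.55 in medium and -0.20 ± 0.55 with IL-17, and both turned positive under some settings, as did the values of NORAD and GAS5 in medium.

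KCNQ1OT1 varied most of the set on the log scale, with an SD of log2(CPM + 1) of 2.21 over the 12 libraries against 0.576 to 1.33 for the other 6. IgG medium replicates 1, 2 and 3 had 16.1, 111 and 0 CPM, and FLAG medium had 177, 57.3 and 54.7 CPM. IgG IL-17 had 126, 30.2 and 7.77 CPM, and FLAG IL-17 had 10.4, 12.7 and 3.12 CPM. The count of 0 came from a library of 3803260 counts and allows up to 0.789 CPM, from a floor of 3 counts, and the 12 counts of replicate 1 give an exact 95% Poisson interval of 8.3 to 28.1 CPM; both cover counting error only. Its log2 fold change of FLAG over IgG was 1.05 ± 0.92 in medium (edgeR adjusted p = 0.968) and -2.07 ± 0.94 with IL-17 (edgeR adjusted p = 0.923). The value with IL-17 was -1.14 without IgG IL-17 replicate 1 and -1.16 without the 3 libraries with the most features, and the value in medium ran from 0.39 without FLAG medium replicate 1 to 3.20 without IgG medium replicate 2. It was called in medium when all 4 libraries that stood apart were left out (edgeR adjusted p = 0.000892), but IgG medium was then the single library with a count of 0. Without the 3 with the most features it was 2.56 in medium (edgeR adjusted p = 0.352).

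NORAD, the cytoplasmic member, was the steadiest, with a coefficient of variation of 31.1% over the 12 libraries, the lowest of the 7. It had 73.6, 253 and 223 CPM in IgG medium and 91.7, 258 and 212 CPM in FLAG medium, the low value in each group belonging to replicate 1. With IL-17 it had 206, 189 and 163 CPM in IgG and 259, 224 and 178 CPM in FLAG. After TMM scaling, which corrects for library composition, the IL-17 libraries separated, at 136 to 234 scaled CPM in IgG and 253 to 289.8 in FLAG, but the log2 fold change was 0.48 ± 0.54 (edgeR adjusted p = 0.923). NORAD was the only 1 of 7 that did not overlap in this comparison, where 14.6% of all features were higher and 12.3% lower in FLAG without overlap, and unscaled CPM overlapped. In medium 0 of 7 separated, beside 5.07% higher and 1.11% lower over all features, and the value of NORAD was -0.11 ± 0.54.

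The host genes showed no separation by antibody. GAS5 had 1506, 550 and 1046 CPM in IgG medium, 816, 739 and 1645 CPM in FLAG medium, 441, 614 and 795 CPM in IgG IL-17 and 374, 727 and 986 CPM in FLAG IL-17. SNHG1 had 4753, 323 and 1014 CPM in IgG medium, 1461, 342 and 1348 CPM in FLAG medium, 244, 526 and 879.6 CPM in IgG IL-17 and 183, 335 and 712 CPM in FLAG IL-17. The value of 4753 CPM, from the shallowest library, lay far above all others. FLAG over IgG was -0.43 ± 0.72 for GAS5 and -1.73 ± 0.94 for SNHG1 in medium (edgeR adjusted p = 1 and 0.796). Without IgG medium replicate 1 these values were 0.35 and 0.42, so their sign rested on that library. With IL-17 they were 0.42 ± 0.72 and -0.21 ± 0.92.

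PVT1 was low, and within 18.7 to 46.1 CPM in 11 of 12 libraries. It had 18.7, 36.9 and 38.1 CPM in IgG medium, 44.5, 35.8 and 46.1 CPM in FLAG medium, and 36.8, 37.1 and 19.03 CPM in FLAG IL-17. IgG IL-17 had 107, 37.1 and 29.6 CPM, with the high value again in replicate 1. The 18.7 CPM of IgG medium replicate 1 rest on 14 counts, with an exact Poisson interval of 10.2 to 31.4 CPM. FLAG over IgG was 0.17 ± 0.51 in medium and -0.48 ± 0.50 with IL-17.

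**Figure D3:**
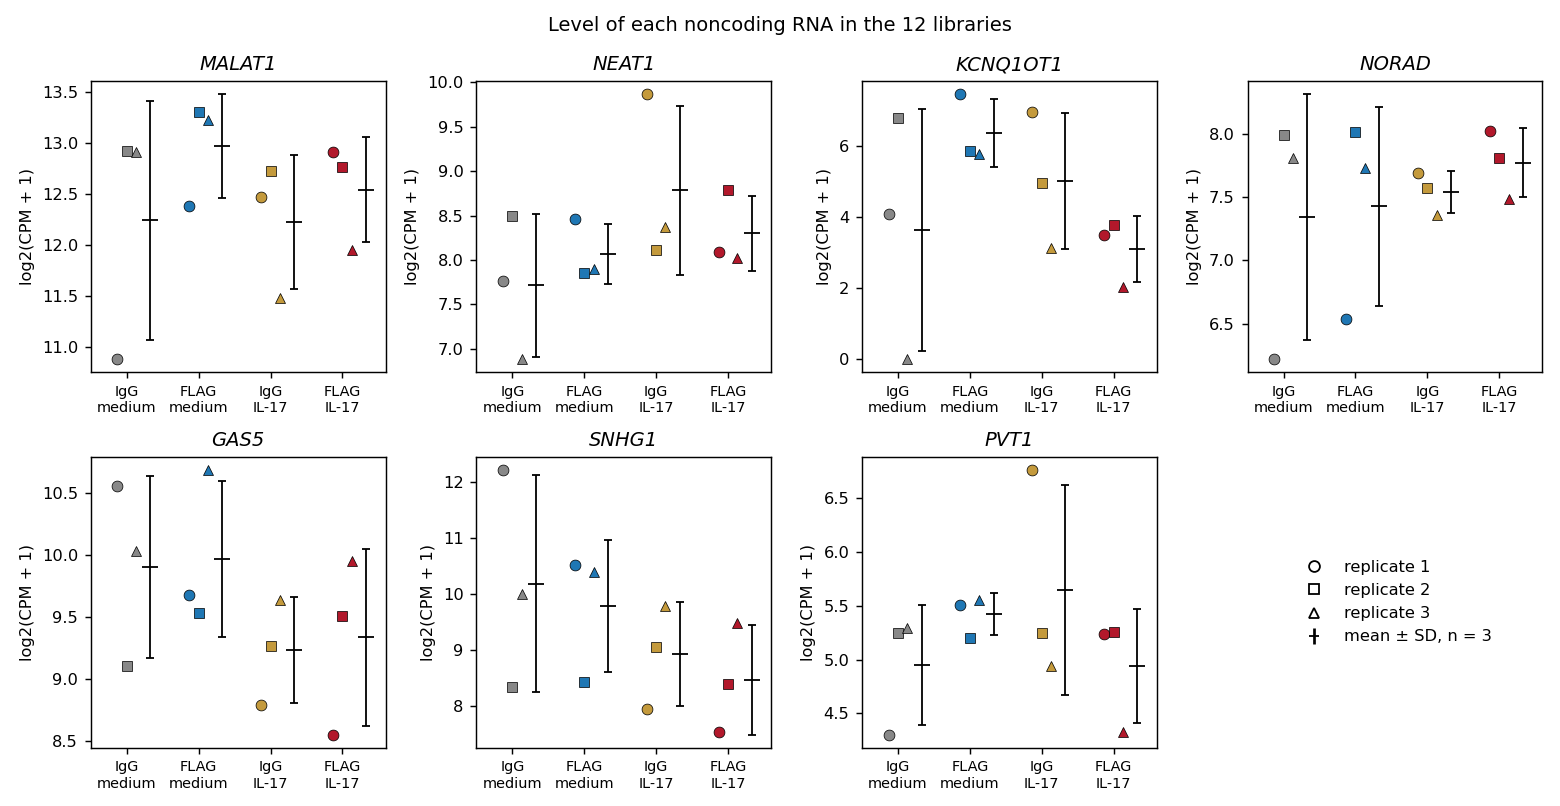
Level of each noncoding RNA as log2(CPM + 1) (vertical axes, one scale per panel) in the 4 groups, with replicates as symbols and mean ± SD (n = 3) beside them. FLAG and IgG points overlap in every panel, and the KCNQ1OT1 points of FLAG IL-17 all lie below those of FLAG medium.

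The next question was how recovery of these RNAs differed between IL-17 and medium. In FLAG precipitates KCNQ1OT1 was the member with the largest estimate, at 8.75 ± 5.02 CPM with IL-17 and 96.3 ± 69.8 CPM in medium (SD, n = 3), and every IL-17 library was lower than every medium library, scaled or not. Its log2 fold change was -2.83 ± 0.96 with a 95% interval of -4.81 to -0.86, an unadjusted p of 0.00668 and an edgeR adjusted p of 0.457, so it did not pass over all features. It was -2.28 without the 4 libraries that stood apart, with an edgeR adjusted p of 0.00907, and -2.32 without the 3 with the most features, with an adjusted p of 0.551. On all 12 libraries it passed with replicate number as a block in the model, at -3.10 (edgeR adjusted p = 0.0277). It also passed without a filter on low counts, at -2.91 (edgeR adjusted p = 0.00173). No other alternative fitted on all 12 libraries called it. FLAG IL-17 libraries held 15007 to 18569 features at equal depth and FLAG medium libraries 18127 to 25309, and the part of this in the KCNQ1OT1 difference was not tested. Depth also differed between these groups.

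NEAT1 and NORAD were the members with the largest positive estimates in FLAG. NEAT1 was at 404 ± 131 scaled CPM with IL-17 and 218 ± 40.1 in medium (SD, n = 3), with a log2 fold change of 0.89 ± 0.55 (edgeR adjusted p = 0.482). NORAD was at 270 ± 18.6 and 158 ± 85.1 scaled CPM, with a log2 fold change of 0.77 ± 0.54 (edgeR adjusted p = 0.515). Both separated after TMM scaling, but their unscaled CPM overlapped, and on log2(TPM + 1) their values were -0.47 and -0.44. MALAT1, GAS5, SNHG1 and PVT1 had edgeR estimates within 1 SE of 0, but the mean TPM of each was lower with IL-17. GAS5 had 86.9 ± 23 TPM with IL-17 and 286 ± 69 in medium, and SNHG1 29.5 ± 16.8 and 152 ± 79.6 (SD, n = 3). The CPM of both overlapped. On log2(TPM + 1) limma gave 2 of 7 members an unadjusted p under 0.05, with a smallest adjusted p of 0.118. The share of all features at that unadjusted p was not computed. In all, edgeR called 0 of 7 in FLAG, beside 0.225% of all features, and DESeq2 (5.35% of 19227) and limma (0.0333% of all) also called 0. At an unadjusted p under 0.05 edgeR gave 1, KCNQ1OT1, beside 3.05% of all features higher and 7.86% lower. Libraries did not overlap for 2 of 7 higher and 1 lower, beside 17.3% higher and 11% lower over all features. The members' median was 0.08, beside -0.29 over all features. Its sign and its order against all features depended on the scale. With RLE factors it was -0.46, beside -0.885. On log2(TPM + 1) it was -0.82, beside -0.447, and on log2(TPM + 0.1) it was -1.28, beside -1.09.

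In IgG precipitates, which hold RNA recovered without the FLAG antibody, NEAT1 and PVT1 leaned higher and SNHG1 and GAS5 lower with IL-17, with none past the threshold. NEAT1 had a log2 fold change of 0.99 ± 0.55 (edgeR adjusted p = 0.920), close to its value in FLAG, and PVT1 one of 0.74 ± 0.52 (edgeR adjusted p = 1). On log2(TPM + 1) these were -0.035 and -0.14. Without the 4 libraries that stood apart NEAT1 was at 1.90 (edgeR adjusted p = 0.0142), a fit in which IgG medium is a single library. SNHG1 had -2.12 ± 0.95 (edgeR adjusted p = 0.889) and GAS5 -0.84 ± 0.72. Without IgG medium replicate 1 these values were 0.08 and -0.05. In TPM, GAS5 was at 216 to 356 in the 6 medium libraries and 61.2 to 106 in the 6 IL-17 libraries, without overlap. SNHG1 separated too, narrowly, at 68.37 to 413 in medium and 16.1 to 68.24 with IL-17. The CPM of both overlapped, and the share of all features that separated this way in TPM was not computed. On log2(TPM + 1) the IL-17 effect of GAS5 in IgG was -1.57 (limma adjusted p = 0.111). The median over all features on that scale was -0.208. Of the 7, edgeR called 0, beside 0.0125% of all features, and DESeq2 (1.78% of 17905) and limma (0.0582% of all) also called 0. At an unadjusted p under 0.05 edgeR gave SNHG1 alone, beside 3.79% of all features higher and 1.78% lower. PVT1 was the 1 of 7 without overlap after scaling, beside 9.69% of all features higher and 1.93% lower, and its unscaled CPM overlapped. The members' median equalled that of all features, at 0.18.

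Whether FLAG over IgG itself changed with IL-17 was tested as an interaction, and edgeR called 0 of 7 (0% of all features), as did DESeq2 (0.514% of 21011) and limma (0% of all). KCNQ1OT1 had a change of -3.12 ± 1.31 with a 95% interval of -5.81 to -0.44 (unadjusted p = 0.0244, edgeR adjusted p = 0.664). It was the 1 of 7 at an unadjusted p under 0.05, beside 1.07% of all features higher and 6.28% lower. Over fits that left out 1 library it ran from -5.29 without IgG medium replicate 2 to -2.19 without IgG IL-17 replicate 1. SNHG1 had a change of 1.52 (SE 1.302, edgeR adjusted p = 0.799), which was -0.57 without IgG medium replicate 1. The other 5 had estimates within 1 SE of 0. The members' median was 0.12, beside -0.52 over all features.

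Levels of several members followed how many features a library held at equal depth. KCNQ1OT1 reached its 3 highest values, 126, 111 and 177 CPM, in the 3 libraries with the most features, and Pearson's r of log2(CPM + 1) with the number of features was 0.781 (Spearman's rho 0.818, n = 12), and 0.926 without the 2 libraries farthest from the median. NEAT1 gave r = 0.791, or 0.599 without those 2, and PVT1 0.811, or 0.426. GAS5 ran the other way at r = -0.633, or -0.37 without those 2. These are descriptions: the libraries share groups, the number of features enters the same count table, and no test was made.

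**Figure D4:**
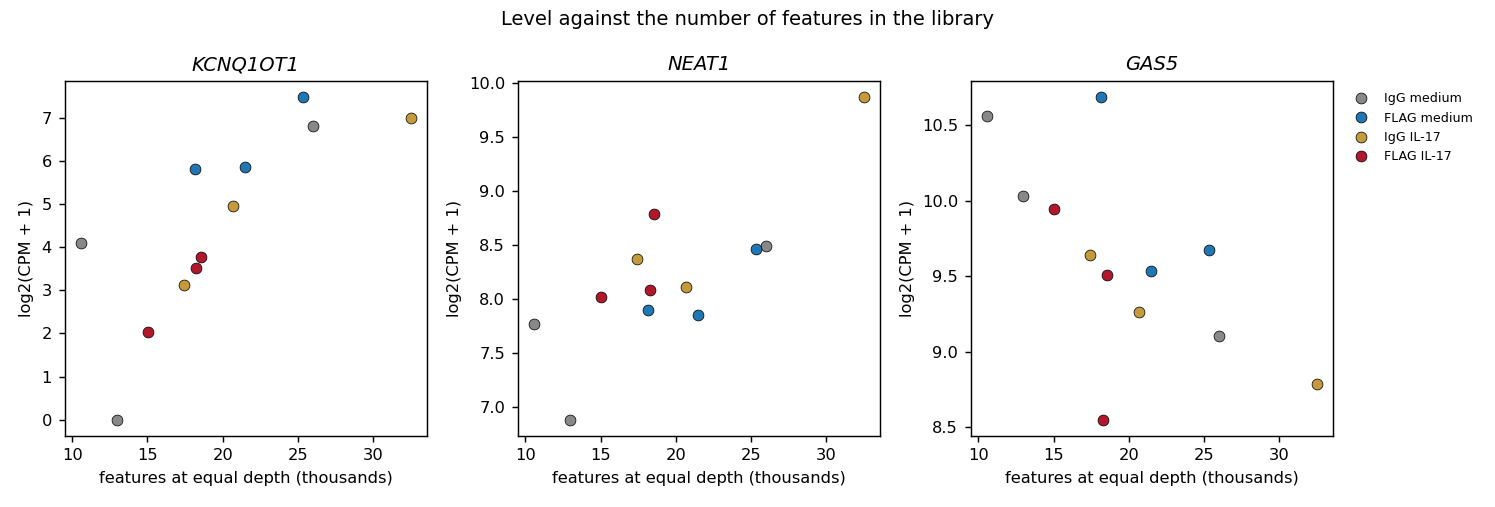
Log2(CPM + 1) of KCNQ1OT1, NEAT1 and GAS5 (vertical axes) against the number of features that each library held at 740000 counts (horizontal axes), 1 point per library. KCNQ1OT1 is highest in the 3 libraries with 25309 or more features, and GAS5 is low in the library with 32471.

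Among the 21 pairs, the snoRNA hosts GAS5 and SNHG1 were most alike over the 12 libraries, with a Pearson r of 0.864 of log2(CPM + 1), 0.85 for deviations from group means and 0.869 without the 2 libraries farthest from the median of GAS5. Even so, GAS5 counts per SNHG1 count ran from 0.317 in IgG medium replicate 1 to 2.17 in FLAG IL-17 replicate 2. MALAT1 and NORAD came next at r = 0.775, or 0.894 within groups and 0.58 without the 2 libraries farthest from the median of MALAT1. MALAT1 counts per NORAD count, a ratio that needs no scaling by library total but is not per length, stayed between 17.5 and 58.3. The 3 FLAG medium libraries, at 58.3, 39.2 and 45.2, lay above the other 9, which ran from 17.5 to 35.9. The value of 58.3, in FLAG medium replicate 1, rests on 220 NORAD counts. The apparent length of MALAT1 over NORAD was also highest there, at 0.71. Per length FLAG medium did not stand apart. MALAT1 and NORAD had 233 and 2.84 TPM in that library, a lower ratio than the 644 and 7.48 TPM of IgG medium replicate 3. No test was made of either ratio, and how often other ratios set a group apart was not computed. FLAG over IgG in medium was 0.41 ± 0.68 for MALAT1 and -0.11 ± 0.54 for NORAD, with overlapping libraries for each. NORAD and SNHG1 were the most opposed pair at r = -0.821, or -0.561 without 2 libraries. NORAD counts per SNHG1 count spanned 91.6-fold, from 0.0155 in IgG medium replicate 1, which held 55 NORAD counts, to 1.42 in FLAG IL-17 replicate 1. The next lowest was 0.0628, in FLAG medium replicate 1. Pearson's r with the log2 library total was 0.711 for NORAD and -0.71 for SNHG1 (Spearman's rho 0.378 and -0.524). The part of depth in this opposition was not tested. NEAT1 and MALAT1, both nuclear and neighbours on chromosome 11, gave r = -0.05.

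**Figure D5:**
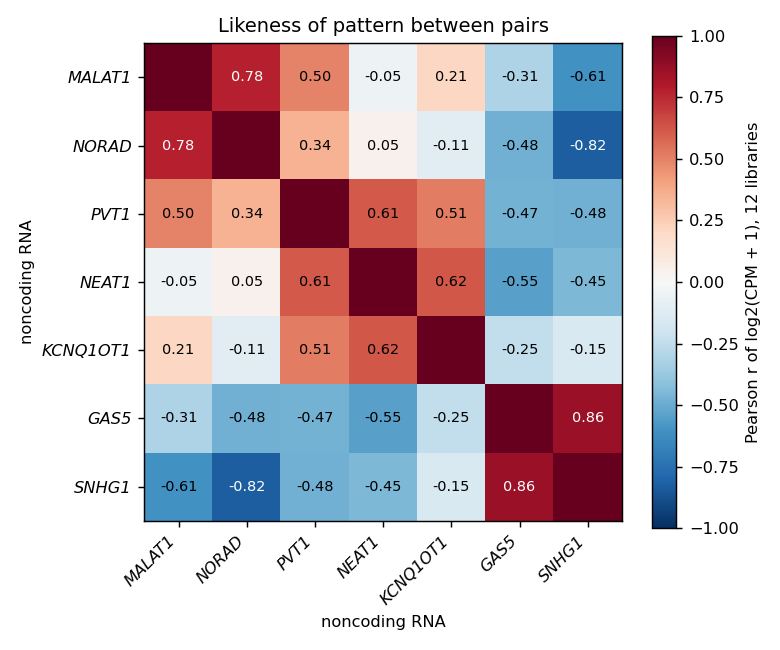
Pearson r of log2(CPM + 1) over 12 libraries for each pair of noncoding RNAs (both axes; colour from -1 to 1). GAS5 and SNHG1 form a pair at 0.86, MALAT1 and NORAD a pair at 0.78, and both hosts run against NORAD.

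Among 12688 other features with a mean of at least 5 CPM, the one most like SNHG1 was ENSG00000125691.14 at r = 0.992, and the one most like NORAD was ENSG00000038274.17 at r = 0.991. At least 0.9 was reached by 32 features for SNHG1, 11 for GAS5, 129 for MALAT1, 143 for KCNQ1OT1 and 633 for NORAD, and by 0 for NEAT1 and PVT1. The files do not pair these identifiers with gene names, and the highest of many correlations over 12 libraries is high by choice.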

How the data were processed

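The submitters' processing notes name GRCh38, hg38, RSEM 1.3.1, STAR 2.7.9, R 4.2.0 and DESeq2 1.36.0 without roles, and do not say whether counting used strand. The authors deposited estimated counts per Ensembl gene, which were rounded to whole numbers here, and a table named for FPKM that holds the deposited TPM values, since all columns have the same sum. Samples were grouped by title.

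All 12 libraries entered 1 model: filterByExpr (minimum count 10), TMM scaling and edgeR 4.0.16 (quasi-likelihood F test, R 4.3.3), with Benjamini-Hochberg adjustment over 24040 features and a threshold of 0.05. Standard errors come from the common model (common dispersion 0.953). Fitted values are given for all members for FLAG over IgG, and otherwise where the estimate exceeded its SE. Alternatives included DESeq2 1.42.0 and limma 3.58.1. The code was run on simulated counts with less spread than these data, so that run does not measure the power or error rate of the fit here.

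Apparent length used at least 20 counts and 0.2 TPM. The design scaled it by each library's median feature; scaling by NORAD was chosen after seeing the data. Members, lists and tests were chosen with earlier results of these data known. The main model did not pair samples by replicate number, under a rule that every same-numbered pair correlate above 0.1. Deviations from group means gave -0.159 to 0.508 (median 0.137, against -0.031 for other pairs). That rule does not exclude pairing, and a fit with a replicate block is given among the alternatives. Lists of other noncoding RNAs, binding proteins and kidney or other cell type markers were not used, because 0 identifiers matched names. Start sequences are from RefSeq, GRCh38.p14, matched by symbol for 4 members.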

Additional observations from a re-analysis of the deposited data

How the results depend on the processing

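Calls of members stayed at 0 of 7 in each comparison fitted (5, or 4 with only the groups compared, which leaves out the change) in every fit that left out 1 library and under RLE factors, upper-quartile factors, library size only, the filter of 50 counts in 3 libraries, adjusted deviances, DESeq2, both limma fits, only the groups compared and leaving out the 3 libraries with the most features, the last chosen after seeing the data. No filter called 1 member in each IL-17 effect, SNHG1 in IgG (edgeR adjusted p = 0.0371) and KCNQ1OT1 in FLAG (edgeR adjusted p = 0.00173). The replicate block called 1, KCNQ1OT1 in FLAG (log2 fold change -3.10, edgeR adjusted p = 0.0277). Among libraries of other groups, 8 of 12 libraries correlated best with a library of their own number. Of the pairs between groups, 18 shared a number and 36 did not, so 8 of 12 is more than that share. Leaving out the 4 libraries that stood apart called 1 for FLAG over IgG in medium, 2 for IL-17 in IgG, 1 for IL-17 in FLAG and 1 for the change. In that fit the lone IgG medium library is taken to vary as the remaining groups do and holds a count of 0 for KCNQ1OT1, so the fitted folds of KCNQ1OT1 against it are no bounds. For KCNQ1OT1, the adjusted p for IL-17 in FLAG ran from 0.00173 to 0.788 over all settings. Over all tested features, calls for IL-17 in FLAG numbered 54, and 2 (limma on log2(TPM + 0.1)) to 1029 (DESeq2) under alternatives. Leaving out the 4 libraries gave 1237 calls for FLAG over IgG in medium against 0, 1631 for IL-17 in IgG against 3 and 667 for the change against 0, and DESeq2 gave 9 for FLAG over IgG with IL-17 against 0. The median of all features for IL-17 in FLAG was -0.29 with TMM, -0.885 with RLE factors and -0.916 with library size only. Counts of 55 or fewer for NORAD, KCNQ1OT1 and PVT1 in IgG medium replicate 1 limit what that library shows.

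Signs of uncalled values turned as follows, and the cause was not tested. In medium, FLAG over IgG became 0.054 for GAS5, 0.25 for NEAT1 and 0.024 for NORAD with library size only. It became 0.147, 0.053 and 0.044 on log2(TPM + 1), and 0.147, 0.048 and 0.135 on log2(TPM + 0.1). With only the groups compared it was 0.12 for NEAT1 and 0.073 for NORAD. Without the 4 libraries it was 0.29 for GAS5, 1.02 for NEAT1 and 0.074 for NORAD, and without the 3 it was 0.31 for NORAD. Leaving out 1 library gave -0.93 to 0.35 for GAS5, -0.41 to 0.22 for NEAT1, -0.34 to 0.28 for NORAD and -2.15 to 0.42 for SNHG1. With IL-17, FLAG over IgG of NEAT1 became 0.066 without the 4 libraries and 0.036 without the 3, and leaving out 1 library gave -0.74 to 0.053. The same ranges were -0.31 to 0.69 for GAS5 and -1.30 to 0.39 for SNHG1. On log2(TPM + 1) and log2(TPM + 0.1), the IL-17 effect became -0.035 and -0.062 for NEAT1 in IgG, -0.14 and -0.16 for PVT1 in IgG, -0.47 and -0.56 for NEAT1 in FLAG, and -0.44 and -0.51 for NORAD in FLAG. SNHG1 in IgG became 0.029 without the 4 libraries and ran from -3.05 to 0.082 leaving out 1. Its change became -0.23 and -0.24 on the TPM scales and -0.58 without the 4 libraries, and ran from -0.57 to 1.97 leaving out 1.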
